A study of Mus musculus with 2 samples.

Results

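Interferons act on Treg cells, the Foxp3-expressing regulatory lineage of CD4 T cells, through a short chain of proteins at the cell surface, and the genes of that chain are described here. They are 10 genes, taken by exact gene name from 34745 gene rows: the receptor chains Ifngr1, Ifngr2, Ifnar1 and Ifnar2, the kinases Jak1, Jak2 and Tyk2, the phosphatase gene Ptpn2, the gamma-responsive gene Cd274 and Ifng, the gene of interferon gamma itself. Each matched 1 row, and all 10 passed a filter of at least 1 CPM (counts scaled to library size) in at least 1 library, as did 13464 rows in all. RNA came from CD4+ YFP+ cells sorted out of the spleens of C57BL/6 mice at 2 weeks of age. The wild-type library was made from poh1+/+ Foxp3Cre+ mice and the knockout library from poh1fl/fl Foxp3Cre+ mice, so both groups carry the Foxp3-driven Cre and differ in the floxed poh1 allele, which Cre can delete in cells that express Foxp3. There was 1 library per genotype, with 18124611 gene counts in wild-type and 14544212 in knockout cells. The sources used here do not say whether a library pools several mice.

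Type II interferon, or interferon gamma, binds IFNGR1, which carries the kinase JAK1, and brings in IFNGR2, which carries JAK2. Type I interferons bind IFNAR2, which carries JAK1, and IFNAR1, which carries TYK2. The activated kinases phosphorylate STAT transcription factors, and the phosphatase encoded by Ptpn2 removes phosphate from JAK1 and so limits the signal. In Treg cells, interferon gamma signalling is known as a route to a T helper 1-like state with weaker suppression, and PD-L1, the product of Cd274, is an inhibitory ligand that interferon gamma induces in many cell types.

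The comparison asks how transcript levels differ between Treg cells with and without an intact poh1 gene. POH1 is a deubiquitinase of the proteasome, and its mouse gene is Psmd14. Psmd14 had 1619 counts in wild-type and 463 in knockout cells, which left 35.6% of the wild-type level, in the direction of the labels. Of 7 Treg markers, 2 were higher and 2 lower by the rule given below (9.58% and 12.3% of all measured genes). Foxp3 (671 and 1073 CPM) and Il2ra were the higher ones, Ctla4 (1120 and 703 CPM) and Ikzf2 (825 and 526 CPM) the lower ones, and Cd4 was at 688 and 724 CPM. The sum of the 7 was 4979.8 CPM in wild-type and 5153 CPM in knockout cells, with members that went opposite ways. A single library stands for each genotype, so the differences have no replicate check and carry no p-value. The ranges in parentheses are 95% intervals of the ratio of knockout to wild type from the counts alone, and they do not cover the spread between mice.

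A gene was called higher or lower where its interval lay wholly beyond 1.5-fold. Of the 10 genes, 3 were called higher in knockout cells and 0 lower. The same rule called 9.58% of the 13464 measured genes higher and 12.3% lower, 21.9% in all. The 3 genes were Cd274, Ifngr2 and Jak2. The median log2 ratio of the 10 genes was 0.38, with single values from -0.56 for Tyk2 to 1.65 for Cd274, beside a median of -0.01 over all measured genes, whose quartiles were -0.44 and 0.39. An interval wholly above 1 was seen in 6 of the 10 genes and one wholly below 1 in 2, while 34.3% and 35.3% of all measured genes lay in these classes. The count rests on the fold chosen: 1 gene, Cd274, was beyond 2-fold (4.34% of all genes were higher), whereas 4 were higher beyond a looser threshold of 25% (16.7% of all genes) and 1, Tyk2, was lower beyond the same step downward (19.5% of all genes).

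**Figure D1:**
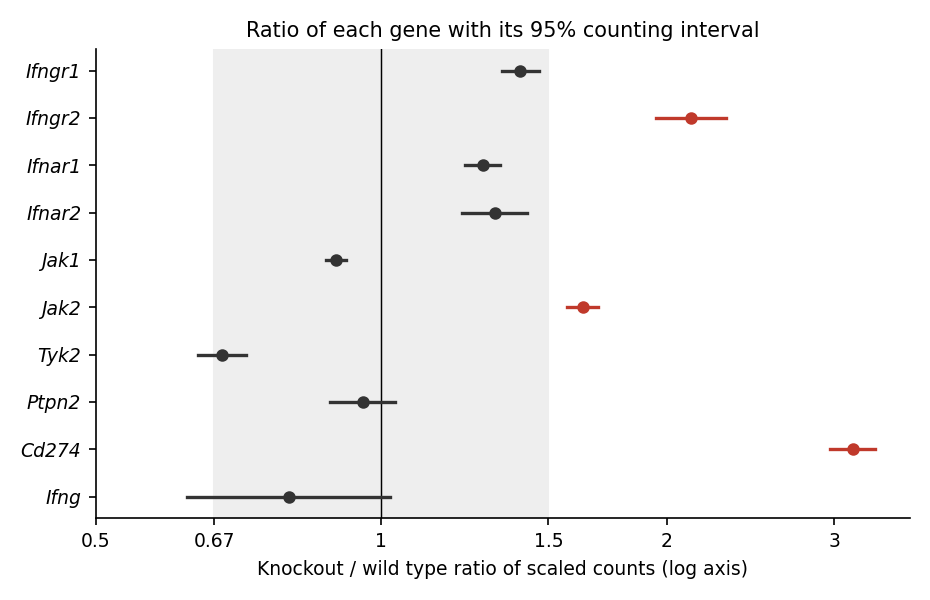
Ratio of knockout to wild type for each of the 10 genes (horizontal log axis), from 1 library per genotype. Points are ratios of scaled counts, lines are 95% counting intervals and the grey band spans 1.5-fold in each direction: Ifngr2, Jak2 and Cd274 (red) lie wholly to the right of it, and Tyk2 crosses its left edge.

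The sequences before the start sites of the 3 higher genes and of Ifng are shown so that the genes that differed can be set beside the ligand gene that did not pass the rule. They come from RefSeq (GRCm38.p6), which held a promoter window for 9 of the 10 genes, are read 5′ to 3′ on the gene's strand, and have CG dinucleotides in capitals. For Cd274 the 47 bases that lie between it and Plgrkt are given (chr19:29367391-29367437, plus strand), and for the others the 250 bases before the start, which are chr16:91546809-91547058 for Ifngr2, chr19:29251553-29251802 for Jak2 and chr10:118440796-118441045 for Ifng, all on the plus strand.
Cd274: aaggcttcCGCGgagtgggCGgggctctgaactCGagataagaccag
Ifngr2: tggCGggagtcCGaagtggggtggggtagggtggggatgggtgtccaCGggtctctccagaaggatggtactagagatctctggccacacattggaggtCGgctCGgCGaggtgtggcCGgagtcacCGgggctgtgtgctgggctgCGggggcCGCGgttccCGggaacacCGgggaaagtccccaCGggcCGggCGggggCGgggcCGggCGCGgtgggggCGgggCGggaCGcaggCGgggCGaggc
Jak2: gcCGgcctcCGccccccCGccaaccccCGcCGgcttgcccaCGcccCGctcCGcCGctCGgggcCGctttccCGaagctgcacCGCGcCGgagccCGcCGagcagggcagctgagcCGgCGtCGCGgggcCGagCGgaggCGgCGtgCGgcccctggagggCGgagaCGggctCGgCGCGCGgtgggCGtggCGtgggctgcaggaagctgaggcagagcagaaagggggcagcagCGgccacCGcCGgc
Ifng: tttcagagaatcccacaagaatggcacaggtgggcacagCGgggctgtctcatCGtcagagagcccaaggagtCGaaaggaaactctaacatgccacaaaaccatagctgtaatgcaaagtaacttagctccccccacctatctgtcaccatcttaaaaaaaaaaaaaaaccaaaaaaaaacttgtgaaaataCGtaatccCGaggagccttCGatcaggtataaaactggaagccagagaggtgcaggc

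In the 250 bases before the start, Jak2 had 37 CG dinucleotides, Ifngr2 25, Cd274 11 and Ifng 6, beside a median of 6 over 32851 promoters. For Cd274 these bases reach into Plgrkt beyond the 47 printed, and the 11 are counted over all 250. Among the members not printed, Jak1, Tyk2 and Ifnar1 had 19 each and Ifngr1 and Ifnar2 11 each. The CG count therefore did not order the members by their ratio, since Cd274 and Ifngr1 had the same number. The gamma-activated sequence (GAS, searched as TTCNNNGAA, which reads the same on both strands) was found in 3 of the 9 windows of 300 bases (250 before to 50 after the start), and in 8.3% of all promoters. The matches, with the fixed letters in capitals, were TTCagaGAA in Ifng, 249 bases before the start, TTCctgGAA in Ifnar2, 214 bases before, and TTCacgGAA in Ifnar1, 5 bases before. The interferon-stimulated response element (ISRE, searched on both strands as GAAA, any 2 bases and GAAA again) was found in 0 of the 9 windows and in 3.44% of all promoters. These are matches of letters, and the windows of Ifngr2, Jak2 and Cd274 held neither motif. In the printed sequence of Ifng, the GAS letters are bases 2 to 10.

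The receptor for interferon gamma differed between its chains. Ifngr1, the ligand-binding chain, had 3526 counts (195 CPM) in wild-type and 3967 counts (273 CPM) in knockout cells, a ratio of 1.40 (1.34 to 1.47). Ifngr2, the chain that completes the signalling complex, had 880 counts (48.6 CPM) and 1498 counts (103 CPM), 2.12-fold higher (1.95 to 2.31). Only the interval of Ifngr2 cleared 1.5-fold, and its ratio ranked 1061 from the highest among the measured genes. Per gene length, on the scale of the deposited FPKM (fragments scaled to gene length and library total), Ifngr1 was above Ifngr2 in both libraries. The FPKM ratio of Ifngr1 to Ifngr2 was 3.37 (3.13 to 3.63) in wild-type and 2.23 (2.10 to 2.36) in knockout cells. This ratio was thus 1.51-fold smaller in the knockout library (1.38 to 1.66), a value that depends neither on gene length nor on the scaling between libraries.

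Both chains of the type I receptor were slightly above their wild-type level, and neither passed the rule. Ifnar1 had 4375 counts (241 CPM) in wild-type and 4492 counts (309 CPM) in knockout cells, a ratio of 1.28 (1.23 to 1.33). Ifnar2 had 1248 counts (68.9 CPM) and 1319 counts (90.7 CPM), a ratio of 1.32 (1.22 to 1.42). The intervals of the chains overlapped, and the FPKM ratio of Ifnar1 to Ifnar2 was 2.21 (2.07 to 2.35) in wild-type and 2.14 (2.02 to 2.28) in knockout cells. The knockout value of this ratio was 0.971 of the wild-type value (0.890 to 1.06). A gene-level count joins the membrane-bound and the soluble form of IFNAR2, which come from the same gene.

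The kinases did not share a direction. Jak2, which serves the interferon gamma receptor through IFNGR2, had 5127 counts (283 CPM) in wild-type and 6707 counts (461 CPM) in knockout cells, 1.63-fold higher (1.57 to 1.69). Tyk2, which serves the type I receptor through IFNAR1, had 3201 counts (177 CPM) and 1745 counts (119.9 CPM). Its ratio of 0.679 amounts to 1.47-fold less in knockout cells, and the interval of that fold (1.39 to 1.56) spans the 1.5-fold line, so it was not called. Jak1, used by both receptors, had 14414 counts (796 CPM) and 10368 counts (713 CPM), a ratio of 0.896 (0.873 to 0.919), which was not called either. Jak2 and Tyk2 thus lay on opposite sides of Jak1. On the FPKM scale the ratio of Jak2 to Tyk2 was 1.47 in wild-type and 3.53 in knockout cells, 2.40 times as large (2.24 to 2.57). The ratio of Jak2 to Jak1 was 0.648 and 1.18, 1.82 times as large (1.74 to 1.90). Of the summed FPKM of the 4 JAK family genes, Jak2 made up 23.3% in wild-type and 34.5% in knockout cells, Tyk2 15.8% and 9.79%, Jak1 36.0% and 29.3%, and Jak3, the kinase of the common gamma chain, 24.9% and 26.4%.

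Ptpn2 encodes a phosphatase that acts on JAK1. It had 1422 counts (78.5 CPM) in wild-type and 1091 counts (75.0 CPM) in knockout cells, and its interval (0.882 to 1.03 around a ratio of 0.956) included 1. Its relative Ptpn1 was at 301 and 614 CPM, 2.04-fold higher (1.98 to 2.11).

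**Figure D2:**
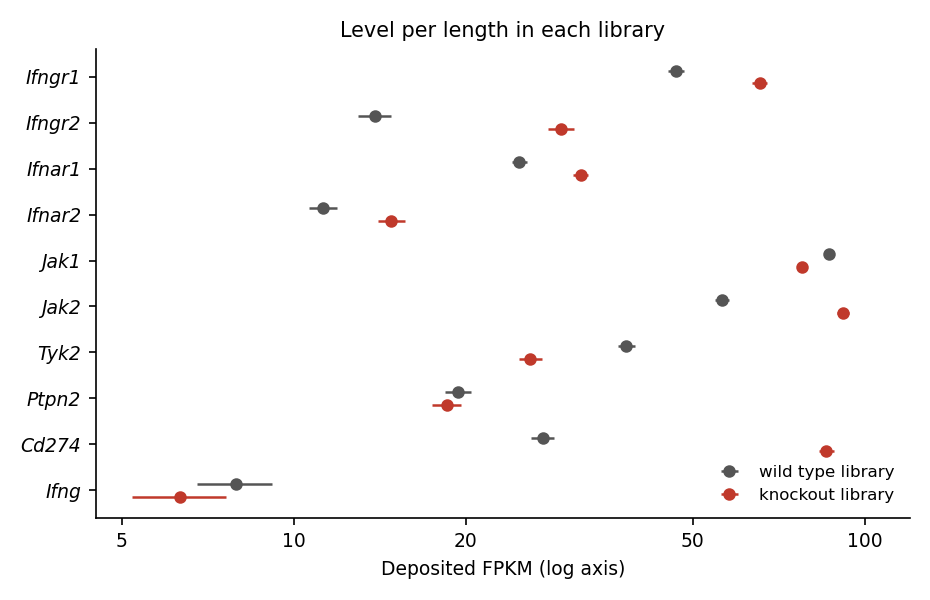
Deposited FPKM of each gene (horizontal log axis) in the wild-type (grey) and the knockout library (red), with 95% counting intervals. Jak1 is the highest in the wild-type library at 86.8, Jak2 is the highest in the knockout library at 91.7, and Ifng is the lowest in both.

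Per gene length, the order of the 10 genes differed between the libraries. In the wild-type library the order by FPKM was Jak1 (86.8), Jak2 (56.2), Ifngr1 (46.7), Tyk2 (38.2), Cd274 (27.3), Ifnar1 (24.9), Ptpn2 (19.4), Ifngr2 (13.9), Ifnar2 (11.3) and Ifng (7.91). No neighbours in this order had overlapping counting intervals. In the knockout library Jak2 (91.7) and Cd274 (85.7) came above Jak1 (77.8) and Ifngr1 (65.5). Then followed Ifnar1 (31.8) and Ifngr2 (29.4), whose intervals overlapped, and Tyk2 (26.0), Ptpn2 (18.5), Ifnar2 (14.8) and Ifng (6.32). Cd274 thus moved from the fifth place to the second and Tyk2 from the fourth to the seventh. The median FPKM of all measured genes was 5.19 and 5.08, below each of the 10 genes.

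The order leans on the gene lengths behind the FPKM values. The lengths implied by the deposited counts and FPKM equalled the joined exons of the GENCODE M21 annotation to within 1 base for 2 of the 10 genes, Jak2 and Cd274, and ran from 0.673 times that length for Tyk2 to 1.84 times for Ifnar2. With the M21 lengths, Jak1 (98.6) and Ifngr1 (95.8) came above Jak2 (91.7) and Cd274 (85.7) in the knockout library, and the ratio of Ifngr1 to Ifngr2 was 5.30 in wild-type and 3.50 in knockout cells. The ratio of Jak1 to Tyk2 then went from 2.27 to 4.28 in wild-type and from 2.99 to 5.64 in knockout cells. The shares of the JAK family shift as well, with Jak1 at 39.3% and 31.8%, Jak2 at 20.1% and 29.5%, Jak3 at 31.4% and 33.03% and Tyk2 at 9.19% and 5.63%, so that Jak2 is no longer the largest in knockout cells. Ratios between the libraries do not change with the length.

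Cd274 was the member with the largest ratio. It had 1793 counts (99.0 CPM) in wild-type and 4517 counts (310.5 CPM) in knockout cells, 3.14-fold higher (2.97 to 3.32). Its ratio ranked 488 from the highest among the measured genes. Pdcd1lg2, the gene of the related ligand PD-L2, is its neighbour on chromosome 19. It had 226 and 103 counts, a ratio of 0.568 (0.445 to 0.720), which did not pass the rule. Of 9 genes for receptors, relatives and regulators of PD-L1, 0 were higher and 1 was lower, with a median log2 ratio of -0.42. These counts are near the shares over all measured genes, 9.58% higher and 12.3% lower. The lower one was Pdcd1, the gene of the PD-1 receptor, with 777 and 117 counts, 5.33-fold lower (4.39 to 6.53). Cmtm6, which keeps PD-L1 at the cell surface, was at 204 and 206 CPM, and Cd80, whose product binds PD-L1 on the same cell, was at 8.33 and 4.47 CPM.

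Ifng was the least abundant of the 10 genes. It had 173 counts (9.55 CPM) in wild-type and 111 counts (7.63 CPM) in knockout cells, a ratio of 0.799 whose interval (0.624 to 1.02) included 1. At this depth a difference in Ifng was not detectable beyond counting error. Ifng makes interferon gamma, the ligand of the receptor above, and in T cells its transcription depends on T-bet, EOMES and STAT4. Of 14 measured regulators of its transcription, 2 were higher and 6 lower (9.58% and 12.3% of all measured genes). The median log2 ratio of the list was -0.40. The list does not separate activators from repressors of Ifng, so these counts carry no direction for it. Eomes, also on the list of NK and innate lymphoid cell markers, had 28 and 122 counts, 5.43-fold higher (3.58 to 8.50). Ikzf4, the gene of EOS, was 1.92-fold higher (1.80 to 2.05). Tbx21, the gene of T-bet, had 163 and 185 counts, a ratio of 1.41 (1.14 to 1.76), and Stat4 was at 63.7 and 60.2 CPM. The interleukin-18 receptor genes Il18rap and Il18r1 were 3.35-fold (2.88 to 3.91) and 2.79-fold lower (2.55 to 3.06), and Nfatc1 was 2.36-fold lower (2.25 to 2.47).

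Transcripts that mark other spleen cells also had unequal levels, and their part in the values of Cd274 and Ifng was not tested. In bulk RNA, fewer cells of a type and less RNA per cell cannot be told apart. Of 10 B cell markers, 9 were lower and 0 higher, and their sum was 133 CPM in wild-type and 34.4 CPM in knockout cells. For this and the marker lists below, the shares over all measured genes were 12.3% lower and 9.58% higher. Of 9 measured dendritic cell markers, 5 were lower and 1, Ccr9, was higher. Of these 9, 6 had a log2 ratio below 0. The sum of all 10 listed was nevertheless 74.4 and 100.7 CPM, since it was carried by Ccr9 (14.7 and 41.2 CPM) and by Bst2 (28.9 and 37.9 CPM), which is also on the type I responsive list. Xcr1, Cd209a and Clec9a, at 48, 33 and 23 counts in wild-type cells, were at 0 in the knockout library. Each therefore passed the filter only through the wild-type library. Of 12 monocyte and macrophage markers, 1 was higher, Csf1r at 52.9 and 92.1 CPM, and 0 were lower, with sums of 242 and 299.6 CPM. Of the neutrophil markers 4 of 5 measured were lower (sums of 17.3 and 6.19 CPM, with Camp at 26 and 0 counts), and of the erythroid markers 9 of 9 (sums of 97.4 and 24.1 CPM). Among the markers called lower, Cr2, Camp, Mpo, Klf1 and Epor also reached 1 CPM only in the wild-type library.

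CD8 T cells and NK cells also transcribe Ifng, and the sort for CD4+ YFP+ cells should remove them. Of 4 measured CD8 T cell markers, 3 were higher and 0 lower (9.58% and 12.3% of all measured genes). Sums over the 5 listed were 36.4 and 62.4 CPM, and Cd8a was at 7.40 and 26.1 CPM. Gzmk, among the 3, had 0 and 17 counts and passed the filter only through the knockout library. Nkg7 had a ratio of 0.796 (0.663 to 0.953), and Klrd1, with 6 and 2 counts, did not reach the filter. Of 5 measured markers of NK and innate lymphoid cells reported here, 3 were higher (Prf1, Gzma and Eomes) and 0 lower, with sums of 8.17 and 29.5 CPM over 9 genes. The other measured markers, Klrk1 with 25 and 12 counts and Klrb1c with 19 and 12 counts, had ratios below 1 and intervals that included 1. The NK receptor genes Klra4, Klra8 and Klra9 were at 0 counts in both libraries, and Ncr1 had 2 and 0 counts. Ifng itself was at 9.55 and 7.63 CPM, and the part of such cells in it was not tested.

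**Figure D3:**
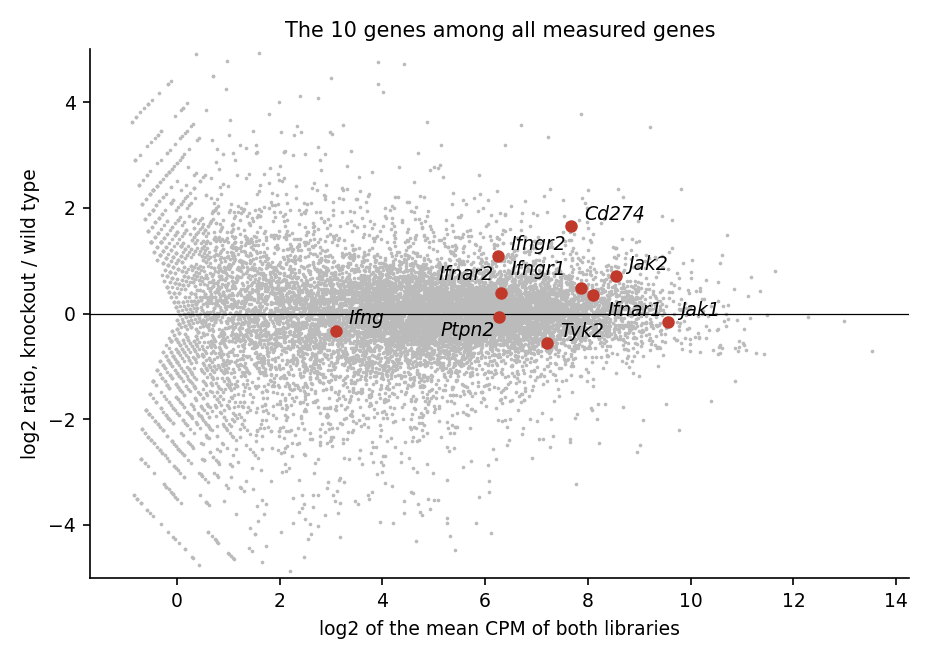
Log2 ratio of knockout to wild type (vertical) against log2 of the mean CPM of both libraries (horizontal) for the measured genes (grey, with 115 beyond the vertical axis not drawn) and the 10 genes (red, named). Cd274 at 1.65 and Ifngr2 at 1.08 are the highest of the 10, and Tyk2 at -0.56 is the lowest.

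Several of the genes are neighbours on the chromosomes (mm10, GENCODE M21). On the plus strand of chromosome 16 lie Ifnar2 (91372783 to 91405589), Il10rb, Ifnar1 (91485238 to 91507441) and Ifngr2 (91547072 to 91565623). The genes Gm21970 and A930006K02Rik lie among these 4 receptor genes. The gap is 79.6 kb between Ifnar2 and Ifnar1 and 39.6 kb between Ifnar1 and Ifngr2. Their ratios were not alike: Il10rb, the chain shared by the type III interferon and interleukin-10 receptors, had 1058 and 837 counts and a ratio of 0.985 (0.899 to 1.08), below Ifnar1 and Ifnar2, while Ifngr2 at 2.12 lay above both. The intervals of Il10rb and Ifngr2 overlapped with no other of the 4 genes.

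On the plus strand of chromosome 19, Jak2 (29251828 to 29313080) and Cd274 (29367455 to 29388095) lie 54.4 kb apart, with the measured genes Insl6 and Plgrkt between them. Plgrkt, which encodes a plasminogen receptor, is read from the minus strand, and 64 bases lie between it and Cd274 in GENCODE M21. The 47 bases printed above end at the RefSeq start of Cd274, which lies nearer to Plgrkt. Plgrkt had 1578 and 1488 counts and a ratio of 1.17 (1.09 to 1.26), far from the 3.14 of Cd274 beside it. Jak2, Cd274 and Pdcd1lg2 thus gave ratios of 1.63, 3.14 and 0.568 within one stretch of the chromosome. The other members lie alone: Ifngr1 on chromosome 10 (19591949 to 19610229), Ifng on chromosome 10 (118441046 to 118445892), Jak1 on chromosome 4 (101152367 to 101265282), Tyk2 on chromosome 9 (21104068 to 21131243) and Ptpn2 on chromosome 18.

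**Figure D4:**
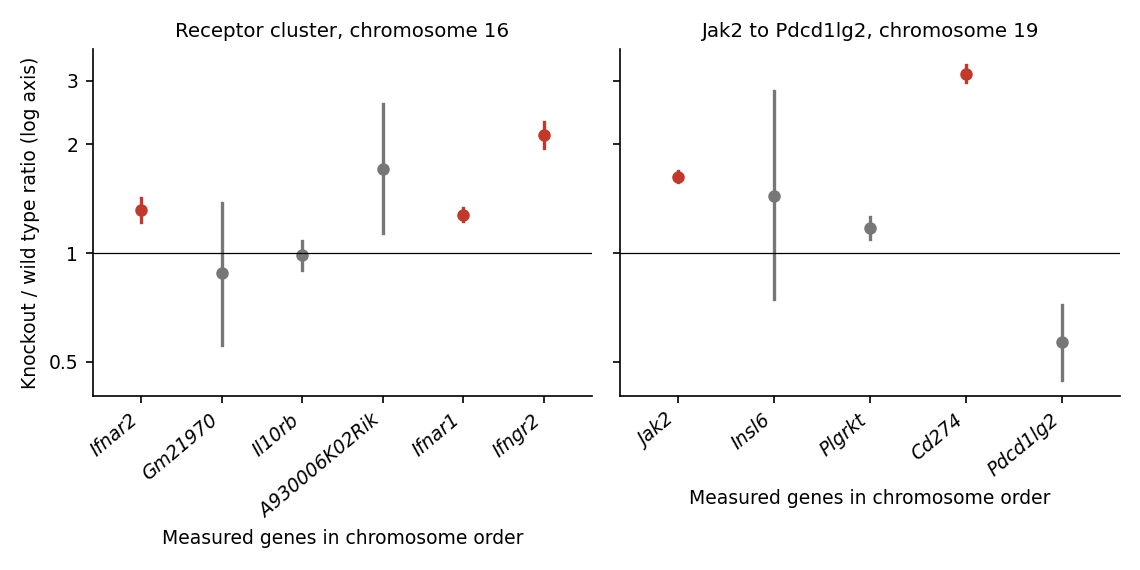
Ratio of knockout to wild type (vertical log axis) of the measured genes of both clusters in chromosome order, with 95% counting intervals and those of the 10 genes in red. Il10rb sits at 0.985 between its receptor neighbours, and Plgrkt at 1.17 sits beside Cd274 at 3.14.

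Counts of overlapping genes are uncertain here. Strand information is not kept by the library kit (TruSeq RNA v2), so reads of antisense genes cannot be told apart where exons overlap. Gm49751 lies on the strand of Ifng and Gm21970 on that of Ifnar2, so for these pairs strand would not separate the reads. Exons of Ifng are shared over 25.9% of their length with Gm49751, those of Cd274 over 14.1% with the antisense gene AC119228.1, those of Ifnar2 over 9.46% with Gm21970 and those of Tyk2 over 8.07% with the antisense gene 1700084C06Rik. Gm21970 had 51 and 36 counts and 1700084C06Rik 27 and 27 counts, small beside Ifnar2 and Tyk2. The exons of Ifngr1, Ifngr2, Ifnar1, Jak2 and Ptpn2 overlapped no other gene.

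Downstream of the receptors, the genes of the transcription factors Stat2, Stat3 and Irf9 were higher. All 3 passed the rule, beside 9.58% of all measured genes that were higher, with a median log2 ratio of 0.94 (all measured genes -0.01). Stat2 and Irf9, whose products are parts of the type I complex ISGF3, were 2.85-fold (2.71 to 3.01) and 1.80-fold higher (1.70 to 1.90), and Stat3 was 1.92-fold higher (1.86 to 1.99).

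Other genes that restrain the receptors were higher in part. Of 18 measured brakes apart from Ptpn2, 7 were higher and 0 lower (9.58% and 12.3% of all measured genes). The median log2 ratio of the list was 0.54. Socs1, a feedback inhibitor of JAK kinases, was at 33.2 and 124 CPM, 3.73-fold higher (3.40 to 4.10). Usp18, which blocks signalling at IFNAR2, had 186 and 565 counts, 3.78-fold higher (3.20 to 4.49), and Socs3 was 3.44-fold higher (3.28 to 3.59). Pias3, which inhibits STAT3, was at 35.9 and 22.8 CPM, a ratio of 0.634 (0.554 to 0.725), and Fbxw11, a ligase subunit that can direct IFNAR1 to degradation, was at 111 and 80.6 CPM. Btrc, on the same list, had 421 and 531 counts, a ratio of 1.57 (1.38 to 1.79). Of the 18 brakes, 11 had a log2 ratio above 0 and 7 below 0.

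Genes of other cytokine receptors that signal through JAK kinases spanned a wide range. Of 16 measured genes, for JAK3 and for chains of such receptors, 5 were higher and 1 lower (9.58% and 12.3% of all measured genes). The median log2 ratio of the list was 0.45. Il12rb2, the interleukin-12 receptor chain that carries JAK2, had 25 and 417 counts, 20.8-fold higher (13.9 to 32.5). Its partner Il12rb1, which carries TYK2, was 1.65-fold higher (1.53 to 1.78). The interleukin-4 receptor gene Il4ra was 2.08-fold (2.01 to 2.15) and the interleukin-2 receptor gene Il2rb 1.94-fold higher (1.90 to 1.97). Il9r had 1481 and 53 counts, 22.4-fold lower (17.1 to 30.1).

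Genes that respond to interferon gamma and those that respond mainly to type I interferon both held many higher members. Of 29 measured gamma-responsive genes other than Cd274, 23 were higher and 0 lower (9.58% and 12.3% of all measured genes). The median log2 ratio of the list was 1.18. Iigp1 was 13.7-fold (12.5 to 14.9) and Gbp2 11.5-fold higher (11.0 to 12.1). Gbp4, a guanylate-binding protein gene, was at 294 and 1497 CPM, 5.09-fold higher (4.94 to 5.25), and Irf1, the gene of a factor known to drive Cd274, was 2.62-fold higher (2.50 to 2.74). In the same list Cxcl10 was at 15.7 and 8.59 CPM and Ciita at 9.55 and 7.84 CPM. Of 23 measured type I responsive genes, 13 were higher and 0 lower, beside the same shares of all measured genes, and the median was 0.88. Ifit3 was 6.82-fold (5.71 to 8.18) and Oasl2 6.79-fold higher (5.72 to 8.10). Xaf1 was 3.38-fold higher (3.08 to 3.71), while Mx1 with 293 and 276 counts and Rsad2 with 87 and 75 counts had intervals that included 1, and Ifi44 had 20 and 4 counts.

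Ligands other than Ifng were close to undetected. Of 20 genes of type I and type III interferons, 19 had 0 counts in wild-type cells and all 20 had 0 counts in the knockout library. Ifnz, with 2 counts in wild-type cells, was the exception. A count of 0 allows up to 3 counts, or 0.166 CPM in wild-type and 0.206 CPM in knockout cells. Ifnlr1, the specific chain of the type III receptor, had 1 and 0 counts, although its partner Il10rb was at 58.4 and 57.5 CPM.

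**Figure D5:**
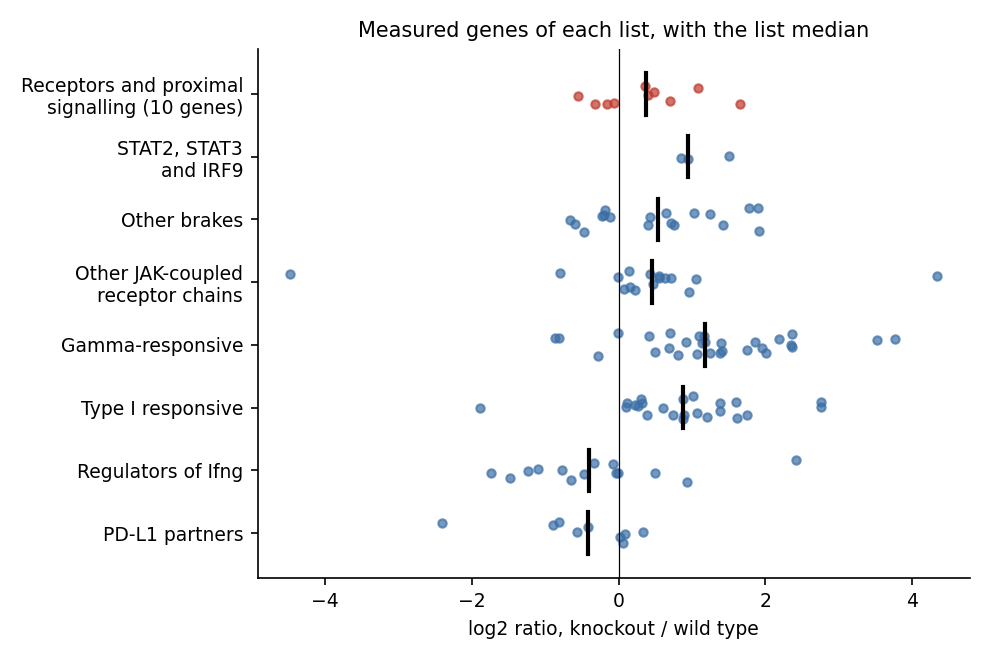
Log2 ratio of knockout to wild type (horizontal) for the measured genes of each list (points, spread vertically at random), with list medians as black bars. The 10 genes (red) have a median of 0.38, the transcription factors 0.94, the gamma-responsive genes 1.18 and the type I responsive genes 0.88, and the regulators of Ifng and the PD-L1 partners lie below 0 at -0.40 and -0.42.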

How the data were processed

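The deposited read counts per gene were used as the authors gave them, and the authors' FPKM values were used only to set genes side by side per length. The submitters' processing notes name TopHat, HTSeq and mm10. Versions, annotation, strand setting and treatment of multiply mapped reads: not given in the sources used here. Counts were scaled with TMM factors (edgeR 4.0.16, R 4.3.3), which shifted log2 ratios by 0.000839 against total counts.

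Intervals of a gene's ratio are exact at 95% (Clopper-Pearson, conditional on the sum of its 2 counts). Intervals of FPKM are exact Poisson, and those of FPKM ratios between genes, and of their change, use the Poisson error on the log scale. Because reads carry no molecular identifiers and may be copies of one molecule, intervals and floors (3 counts) hold for counting error only. No model was fitted, since 1 library per genotype leaves no spread. A pseudocount of 0.5, scaled to library size, entered log2 ratios. The calculations (Python 3.11.15, numpy 2.4.6, scipy 1.17.1, pandas 2.3.3, matplotlib 3.10.9) were tested on simulated data.

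The members, the 9 further pathway lists and the marker lists were chosen with earlier results of these data known. Besides the members and Psmd14, genes were named as up to 3 at each end of a list by the interval bound nearest to 1, the leading or absent markers, and chromosome neighbours. Foxp3, Il2ra, Ctla4, Ikzf2, Cd4, Bst2, Ptpn1, Stat4, Cmtm6, Il12rb1, Irf1, Ciita, Mx1, Rsad2, Klrk1, Klrb1c and Btrc were named after their values were seen. The same holds for Gzmk, Nkg7, Klrd1, Cr2, Mpo, Klf1 and Epor. Of the listed genes, 2 are not reported here and enter no list count, median or sum. Positions and exon overlaps come from GENCODE M21 and promoters from RefSeq.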

Additional observations from a re-analysis of the deposited data

How the results depend on the processing

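Scaling by total counts, DESeq2 1.42.0 size factors or upper-quartile factors kept the same 3 genes, Cd274, Ifngr2 and Jak2, beyond 1.5-fold, as did removing the filter or asking for 10 CPM. Under 3 scalings and a pseudocount of 2 counts, all 40 log2 ratios of the 10 genes kept their sign, and the largest shift was 0.04. The value of Jak1 went from -0.16 to -0.12 with upper-quartile factors, outside its counting interval. The fold asked for had the larger effect, by construction. With 2-fold, 1 member was higher, 585 and 892 of all measured genes were higher and lower, and 1 transcription factor, 4 brakes, 8 type I responsive genes and 1 Ifng regulator were higher. With a threshold of 25%, 1 member was lower, 2253 and 2620 of all genes were higher and lower, and 3 brakes, 2 gamma-responsive genes and 1 type I responsive gene were lower. Asking for 10 CPM left 832 higher and 1046 lower genes and 1 higher Ifng regulator, because fewer genes enter. The settings for the lists, the upper-quartile counts and the M21 lengths were chosen after seeing the data. No paired analysis was possible because each genotype has 1 library. Depth limits Ifng most, at 173 and 111 counts.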

Other observations

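Some genes that flank the isolated members lay far from the member's own ratio, and others did not. Beside Ifngr1, Il22ra2, the gene of a soluble decoy receptor for interleukin-22 and a relative of the interferon receptor chains, had 2 counts in wild-type and 15 in knockout cells, a ratio of 9.34 (2.17 to 84.2). At 0.110 and 1.03 CPM, Il22ra2 passed the filter only through the knockout library. On the other side of Ifngr1, Tnfaip3 was at 2642 and 1097 CPM, a ratio of 0.415 (0.408 to 0.423). Near Tyk2, the phosphodiesterase gene Pde4a had 183 and 47 counts, a ratio of 0.320 (0.227 to 0.443), while Cdc37, whose product is a co-chaperone of kinases, had 4554 and 2560 counts, a ratio of 0.700 (0.667 to 0.735). Near Ptpn2, Spire1 had 242 and 38 counts, a ratio of 0.196 (0.135 to 0.276). Around Ifng, the nearest measured genes Mdm1 and Dyrk2 had ratios of 0.682 (0.576 to 0.807) and 1.30 (1.19 to 1.42).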
